A study of Homo sapiens with 8 samples.

Results

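The 9 genes described here are HLA-B, HLA-C, HLA-E and HLA-F, which encode heavy chains of the class I major histocompatibility complex (MHC), B2M, which encodes their light chain, TAP1 and TAP2, which encode the peptide transporter, and PSMB8 and PSMB9, which encode catalytic subunits of the immunoproteasome. They were chosen by gene name from the 27274 gene names on the array, and they are represented by 13 of its 34127 gene probes, on 22 spots. Of these, 12 probes were tested. The second TAP2 probe was not well above background on any of the 8 arrays and gives no result.

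Class I molecules display peptides of the proteins a cell makes to cytotoxic T cells. The immunoproteasome cuts proteins into peptides that suit class I binding, TAP carries the peptides into the endoplasmic reticulum, and the peptide is loaded there onto a heavy chain paired with beta-2-microglobulin, the B2M product. Many of these genes respond to interferon, and loss of class I expression is a known way in which tumor cells, pancreatic ones included, escape recognition. HLA-E and HLA-F are nonclassical heavy chains that vary little between people and are also read by receptors of natural killer cells.

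RNA was measured in 2 human pancreatic cancer cell lines, MIA PaCa-2, which comes from a primary tumor, and Capan-1, which comes from a liver metastasis. Each line had 2 arrays of cells transfected with siRNA against HOXB7 at 10 nM and taken after 48 hours, and 2 arrays of its parental cells, which carried the label control. HOXB7 is a homeobox transcription factor. No array of cells given a scrambled siRNA was analysed here, so an effect of transfection and an effect of HOXB7 siRNA cannot be told apart. The labels do not say that the 2 arrays of a group came from separate cultures, and p-values measure only the spread between these arrays, which may be technical. The 4 arrays of a line shared 1 slide and no slide held both lines, so that slide and line cannot be told apart.

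The Feature Extraction software called 69.2% to 74.3% of the gene spots well above background, and no spot was saturated on any array. A level below is the log2 intensity of a probe minus the 75th percentile of its array, so that 0 is the level of a fairly bright probe, and levels of different probes are not comparable with each other. The percentile itself was 7.95 to 8.36 on the log2 scale. The brightest spot of the group read 9632 to 11500 intensity units on the MIA PaCa-2 arrays and 28819 to 35089 in Capan-1.

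The heavy chain genes resemble each other in sequence, and the probes show how far their signals can be assigned to 1 gene. Both probes named HLA-B (chr6:31429632-31429691 and chr6:31429642-31429701, build hg18, minus strand) have accession lists that hold HLA-B as well as HLA-C transcripts. A probe named HLA-C lies on the same stretch (chr6:31429623-31429682). These 3 probes share 41 bases with 1 difference among them, which is T15G from the first HLA-B probe to the other two, counted from 1 at the 5′ end of the 30 bases shown here, where the differing base is in capitals.
HLA-B, first probe: gtcaattcctggaaTttgagagagcaaata
HLA-B, second probe: gtcaattcctggaaGttgagagagcaaata
HLA-C, first probe: gtcaattcctggaaGttgagagagcaaata
The signal of these 3 probes is therefore uncertain as to gene. The second HLA-C probe (chr6:31344596-31344655) has an accession list that holds HLA-C only, and it shares no run of 20 bases with any other gene probe on the array. Probes were compared with each other and not with transcripts, so this does not show that it reads 1 gene.

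HLA-F also has 2 probes, which lie apart on the gene and gave line differences of unequal size. The brighter one (chr6:29801259-29801317, hg18, plus strand) has an accession list that holds HLA-F and HLA-H, a pseudogene, and the dimmer one (chr6:29800093-29800152) lists HLA-F only. Both sequences are shown because the comparison of the cell lines turns on which of them is read.
HLA-F, brighter probe: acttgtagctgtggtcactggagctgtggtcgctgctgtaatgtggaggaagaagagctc
HLA-F, dimmer probe: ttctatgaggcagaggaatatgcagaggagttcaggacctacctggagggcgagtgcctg

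The remaining probes were at chr6:30568708-30568767 (HLA-E), chr15:42795065-42795124 (B2M, 10 spots), chr6:32921188-32921247 (TAP1), chr6:32901200-32901259 (TAP2), chr6:32918001-32918468 (PSMB8, 468 bases on the genome for a probe of 60) and chr6:32931896-32931955 (PSMB9) in hg18. TAP1, TAP2, PSMB8 and PSMB9 are neighbors within the MHC region, while B2M lies outside it. None of these shares a run of 20 bases with another gene probe. Exon and UTR annotation of hg18 was not used here.

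Promoter sequences from RefSeq (GRCh38.p14, 250 bases before to 50 after a start) were given for 8 of the 9 genes, in 10 windows. They were searched on both strands for the interferon-stimulated response element (ISRE, GAAANNGAAA), the interferon-gamma activated site (GAS, TTCNNNGAA), a kB site (GGGNNNNNCC) and the CRE half-site TGACG. An ISRE match stood in the windows of 5 genes, HLA-F, B2M, TAP1, TAP2 and PSMB8, and in 3.57% of all 35116 promoter windows. A GAS match was found for 2 genes, TAP1 and PSMB8 (7.66% of all windows), a kB match for 5 genes (58.7%) and a CRE half-site for 6 genes (24.6%). A gene counts here with a match in any of its windows, and TAP1 and PSMB8 have more windows than the others. The shares are of single windows, so the 2 measures are not alike. GAS and kB matches can be read on both strands at the same place, and the ISRE matches of B2M and TAP1 are overlapping pairs. A match is a description of these letters and not a site shown to be used.

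The 250 bases before the start are shown for B2M, for HLA-B, and for TAP1 and PSMB9, whose windows run in opposite directions and share 13 bases, because these cover the light chain, a heavy chain, the transporter and the immunoproteasome. The other TAP1 window, which holds the GAS match of TAP1, and the PSMB8 windows, where an ISRE and a GAS match stand, are not shown. Capitals mark ISRE, GAS and kB matches. The B2M stretch is chr15:44711267-44711516 on the plus strand, that of HLA-B is chr6:31357180-31357429 on the minus strand, that of TAP1 is chr6:32853705-32853954 on the minus strand and that of PSMB9 is chr6:32853942-32854191 on the plus strand.
B2M: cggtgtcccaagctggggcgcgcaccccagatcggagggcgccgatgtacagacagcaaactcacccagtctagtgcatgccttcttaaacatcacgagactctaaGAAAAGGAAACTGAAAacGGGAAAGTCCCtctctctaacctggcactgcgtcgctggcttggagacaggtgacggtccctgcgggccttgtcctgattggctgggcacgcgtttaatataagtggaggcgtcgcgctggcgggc
HLA-B: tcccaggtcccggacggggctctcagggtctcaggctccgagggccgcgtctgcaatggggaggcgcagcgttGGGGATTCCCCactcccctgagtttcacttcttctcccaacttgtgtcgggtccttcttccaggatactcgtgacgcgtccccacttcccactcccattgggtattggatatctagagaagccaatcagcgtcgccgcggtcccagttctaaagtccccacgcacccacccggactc
TAP1: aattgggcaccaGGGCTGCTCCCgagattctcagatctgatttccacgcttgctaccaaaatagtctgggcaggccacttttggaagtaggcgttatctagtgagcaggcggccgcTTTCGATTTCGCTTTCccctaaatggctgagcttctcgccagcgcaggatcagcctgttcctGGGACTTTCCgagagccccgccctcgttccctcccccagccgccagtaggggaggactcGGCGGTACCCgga
PSMB9: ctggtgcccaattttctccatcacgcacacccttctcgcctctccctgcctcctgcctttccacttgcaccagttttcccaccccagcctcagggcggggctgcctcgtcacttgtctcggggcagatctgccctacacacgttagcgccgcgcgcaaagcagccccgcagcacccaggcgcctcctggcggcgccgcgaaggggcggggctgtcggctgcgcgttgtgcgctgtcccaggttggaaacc
The B2M stretch holds the ISRE pair directly before a kB match, the TAP1 stretch holds an ISRE pair and kB matches at 3 places, the HLA-B stretch holds kB matches at 1 place, and the PSMB9 stretch holds none of these.

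HOXB7, the target, was checked first. Its levels in MIA PaCa-2 were -7.76 and -7.78 in the siRNA arrays, where the probe was not well above background. In the parental arrays they were -4.82 and -4.09, so the siRNA level was at least 2.81-fold lower. The limma log2 difference, computed with the siRNA values below background, was -3.32 ± 0.26 (SE, adjusted p = 0.0173). In Capan-1 the levels were -5.26 and -4.80 against -2.48 and -2.34, a log2 difference of -2.62 ± 0.26 (SE) with an adjusted p of 0.121. The Capan-1 value passed without scaling (adjusted p = 0.0181), with spike-in scaling (0.00766), with the spread following intensity (0.0302) and after normexp (0.0353), where it shrank to -0.66. The siRNA arrays lay below the parental arrays in both lines, as their labels say. In MIA PaCa-2 the limma call was lost after normexp, where the log2 difference shrank to -0.10 (adjusted p = 0.599), and without a filter on dim probes (0.0515). The same held with the replicate number as a block (0.169) and with the line fitted alone (0.2045). The MIA PaCa-2 call was lost with the adjusted p at 0.083 without siRNA replicate 1, 0.0555 without parental replicate 2, 0.0561 without either Capan-1 siRNA array and 0.0713 without either Capan-1 parental array.

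The first comparison asked how the 9 genes differ between the parental lines. Of the 12 tested probes 11, from 8 of the 9 genes, were lower in MIA PaCa-2 than in Capan-1 with an adjusted p under 0.05, and TAP2 did not pass. The same 11 had an unadjusted p under 0.05, against 32.3% of all probes lower. Over all 24960 probes tested by the adjusted p, 31.0% were lower and 39.2% higher, these shares being 31.1% and 25.7% when arrays were scaled on their spike-in probes. The median log2 difference was -1.37 over the member probes and 0.11 over all probes. On 12 of 12 member probes both MIA PaCa-2 parental arrays lay below both Capan-1 parental arrays, which was so for 38.9% of all probes. Further genes of the pathway, given below, did not all follow the members. In bulk RNA, fewer cells that express a gene and less RNA per cell cannot be told apart.

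**Figure D1:**
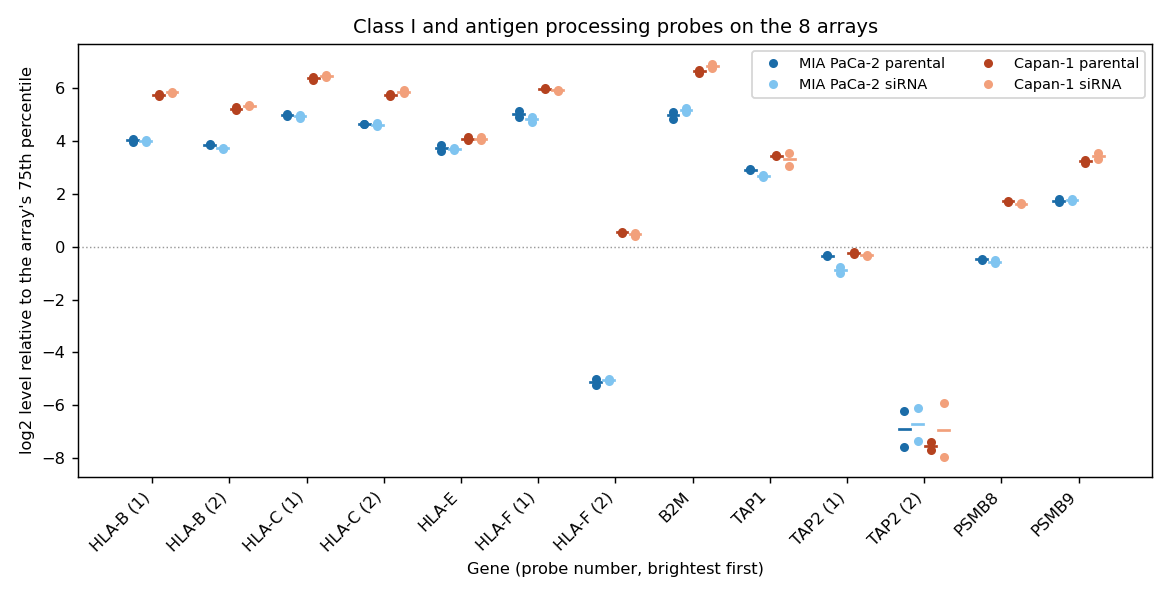
Levels of the 13 member probes on the 8 arrays. The vertical axis is the log2 level relative to the 75th percentile of the array, points are arrays, short bars are means of 2 arrays, and colors are the 4 groups. The Capan-1 arrays lie above the MIA PaCa-2 arrays on 11 of the 12 tested probes, the dimmer HLA-F probe is near -5 in MIA PaCa-2, and the second TAP2 probe is not above background.

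Among the classical heavy chains, the first HLA-B probe had levels of 3.97 and 4.06 in parental MIA PaCa-2 and 5.76 and 5.69 in parental Capan-1. It was 3.27-fold lower in MIA PaCa-2 (log2 difference -1.71 ± 0.083 SE, adjusted p = 1.05e-05). The second HLA-B probe, at 3.85 and 3.87 against 5.27 and 5.17, was 2.57-fold lower (-1.36 ± 0.081). The SD between replicates was 0.016 to 0.074 (n = 2), so the lines were far apart on both probes.

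The first HLA-C probe, which lies on the HLA-B stretch, read 4.94 and 5.00 in parental MIA PaCa-2 and 6.41 and 6.32 in parental Capan-1, which is 2.62-fold lower (-1.39 ± 0.088). The HLA-C probe at a place of its own read 4.62 and 4.66 against 5.77 and 5.70 and was 2.13-fold lower (-1.09 ± 0.087, adjusted p = 8.12e-05). All 4 classical heavy chain probes differed in 1 direction, by 2.13-fold to 3.27-fold, and the 95% intervals ran from -1.91 to -0.88. The probes on the HLA-B stretch share 41 bases, so they are not independent readings of HLA-B and HLA-C.

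The nonclassical heavy chains stood at both ends of the range. HLA-E, a ligand of the CD94/NKG2A receptor, had levels of 3.85 and 3.62 in parental MIA PaCa-2 and 4.03 and 4.14 in parental Capan-1. The difference was 1.27-fold (-0.35 ± 0.11 SE, 95% interval -0.62 to -0.08, adjusted p = 0.0284). This call was lost under 7 of 18 alternatives, among them leaving out MIA PaCa-2 parental replicate 2 (adjusted p = 0.112), Capan-1 parental replicate 1 (0.0613) or Capan-1 parental replicate 2 (0.133).

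HLA-F is a heavy chain that can reach the surface without peptide. Its brighter probe read 5.13 and 4.90 in parental MIA PaCa-2 and 6.003 and 5.953 in parental Capan-1, a 1.95-fold difference (-0.96 ± 0.11, adjusted p = 4.82e-04). Its dimmer probe read -5.25 and -4.99 against 0.55 and 0.52, a 50.5-fold difference (-5.66 ± 0.11, adjusted p = 4.38e-07). In intensity units the dimmer probe was at 8 to 9 in parental MIA PaCa-2 and at 387 to 448 in parental Capan-1, and it was called well above background on all 8 arrays. Both probes were lower in MIA PaCa-2, but the size depended on the probe. For the dimmer one the log2 difference was -3.11 after normexp, whose offset of 50 units by itself shrinks differences of dim probes.

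B2M, the light chain shared by all class I molecules and read on 10 spots, had levels of 4.84 and 5.10 in parental MIA PaCa-2 and 6.69 and 6.58 in parental Capan-1. It was 3.18-fold lower in MIA PaCa-2 (-1.67 ± 0.13 SE, 95% interval -1.98 to -1.36, adjusted p = 6.50e-05). This value lay between those of both HLA-B probes, and the arrays of the lines were well apart.

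The 2 transporter subunits differed less. TAP1 read 2.93 and 2.88 in parental MIA PaCa-2 and 3.42 and 3.47 in parental Capan-1, a 1.45-fold difference (-0.54 ± 0.16 SE, adjusted p = 0.0250). The TAP1 call was lost when any of the 4 parental arrays was left out (adjusted p = 0.0687 without MIA PaCa-2 parental replicate 1, 0.089 without replicate 2, 0.0772 without Capan-1 parental replicate 1 and 0.0944 without replicate 2). TAP2 read -0.33 and -0.36 against -0.19 and -0.27, a difference of -0.12 with a 95% interval from -0.36 to 0.13 (adjusted p = 0.334), so that a difference larger than this interval was not seen. Its direction turned to 0.0095 after normexp background correction.

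The immunoproteasome subunits differed more. PSMB8, the subunit known as LMP7, read -0.46 and -0.49 in parental MIA PaCa-2 and 1.71 and 1.74 in parental Capan-1, which is 4.58-fold lower (-2.19 ± 0.081 SE, 95% interval -2.392 to -1.997, adjusted p = 3.59e-06). PSMB9, known as LMP2, read 1.68 and 1.80 against 3.29 and 3.16 and was 2.81-fold lower (-1.49 ± 0.11, adjusted p = 6.99e-05). The SD between replicates of these genes was 0.022 to 0.093 (n = 2), far below the difference.

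**Figure D2:**
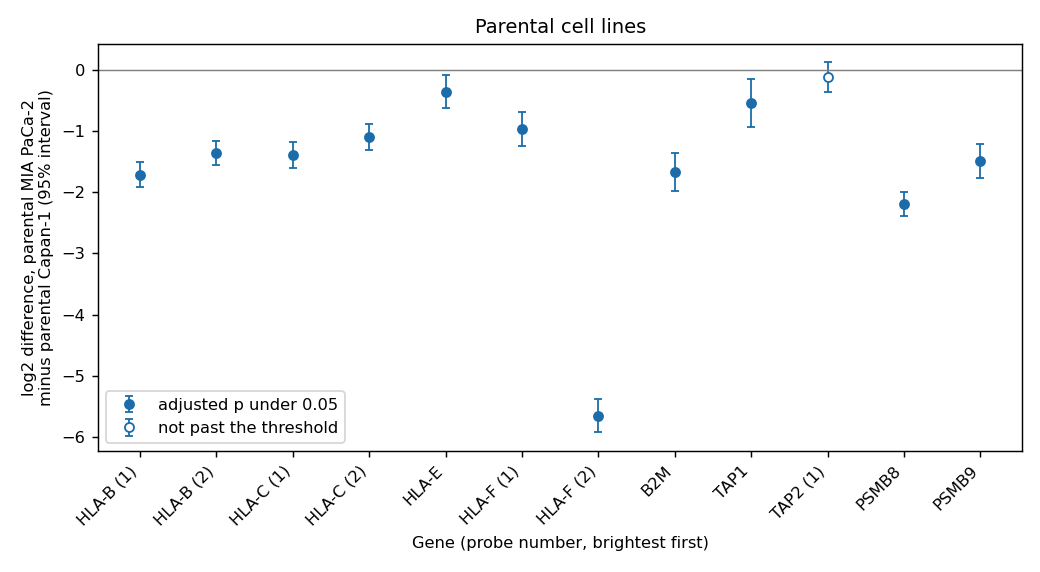
Log2 difference of parental MIA PaCa-2 minus parental Capan-1 for the 12 tested member probes, with 95% intervals from limma (2 arrays per group). Filled points passed an adjusted p of 0.05. The difference ran from -5.66 for the dimmer HLA-F probe to -0.12 for TAP2, and TAP2 alone did not pass.

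The order of the lines did not depend on the treatment for most members: on 11 of 12 tested probes all 4 MIA PaCa-2 arrays lay below all 4 Capan-1 arrays, against 30.8% of all probes, and 40.4% of all probes lay the other way round. TAP2 was the exception, because its MIA PaCa-2 parental arrays (-0.33 and -0.36) overlapped with the Capan-1 siRNA arrays (-0.31 and -0.35).

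Markers of other programs also differed between the lines, and their part in the class I difference was not tested. All 13 probes of the 7 class II genes were lower in parental MIA PaCa-2, against 31.0% of all probes. Among them were HLA-DRA, a class II chain (at least 91.5-fold), and CD74, the invariant chain (at least 57.3-fold). CIITA, the transactivator of class II genes, was at least 23.4-fold lower on its brighter probe. HLA-DPA1 differed least, at 1.70-fold and 1.44-fold lower on its probes. The summed level of the class II list was 2.77 to 2.89 in parental MIA PaCa-2 and 12.8 to 13.2 in parental Capan-1. Of the 7 epithelial probes 6, from 5 of 5 genes, were lower, against 31.0% of all probes. CDH1 was at least 861-fold and EPCAM at least 3850-fold lower, and neither was above background in parental MIA PaCa-2. The brighter KRT18 probe did not pass (-0.21, adjusted p = 0.0808 by limma), and its other probe was 1.44-fold lower. The summed epithelial level was 392 to 428 in parental MIA PaCa-2 and 992 to 1030 in parental Capan-1, with the keratins well expressed in both lines. The interferon-stimulated genes did not follow 1 direction. Of their 12 probes 7 were higher in parental MIA PaCa-2 and 5 lower, against 39.2% and 31.0% of all probes, with a median of 1.20. They ran from IFIT1, an RNA-binding antiviral protein (8.91-fold higher), to IFI27 (32.1-fold lower), and MX1, an antiviral GTPase, was 14.8-fold lower.

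Leukocyte markers, which a pure culture of these lines should lack, had summed levels of 4.86 to 5.10 in parental MIA PaCa-2 and 1.67 to 1.75 in parental Capan-1. Such a sum is weighted toward the brightest probes, the markers did not follow 1 direction, and their part in the class I difference was not tested. CD14, a monocyte coreceptor and the brightest of them in parental MIA PaCa-2, had levels of 1.87 and 1.81 against -2.41 and -2.30 (18.4-fold higher, adjusted p = 1.41e-06). PTPRC, the pan-leukocyte marker CD45, was 3.35-fold higher on its brightest probe, ITGAM and CD3E were 2.72-fold and 2.69-fold lower, and CD68 did not pass. In MIA PaCa-2 siRNA cells 1 of the 6 leukocyte probes was higher, that of CD68, a lysosomal protein (0.70, adjusted p = 0.0438 by limma), and 0 were lower. Over all probes 0.983% were higher and 0.936% lower. These marker calls were not run under the alternatives.

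The second comparison asked whether the members changed with HOXB7 siRNA. In MIA PaCa-2, 0 of 12 member probes passed the adjusted threshold by limma in either direction, against 0.936% of all 23708 probes lower and 0.983% higher (0.143% and 0.0591% without scaling between arrays). At an unadjusted p under 0.05, 1 member probe was lower, TAP2, and 0 were higher, against 9.87% and 10.6% of all probes. The median log2 fold change was -0.04 over the member probes and 0.02 over all probes. The 12 values lay between -0.53 and 0.20, within the central range of all probes, whose 1st and 99th percentiles were -0.83 and 1.02.

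In Capan-1, 0 of 12 member probes passed the adjusted threshold in either direction, against 0% lower and 0.00428% higher of all 23367 probes, and the unadjusted count was also 0, against 6.59% and 5.85%. The median log2 fold change was 0.04 over the member probes and -0.000829 over all probes, and the 12 values lay between -0.14 and 0.20. With 2 arrays against 2, an exact permutation test cannot give a p below 0.33. In simulated data of this design a log2 change of 1 was recovered for 59.5% of changed probes in the MIA PaCa-2 comparison and for 55.5% in that of Capan-1.

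**Figure D3:**
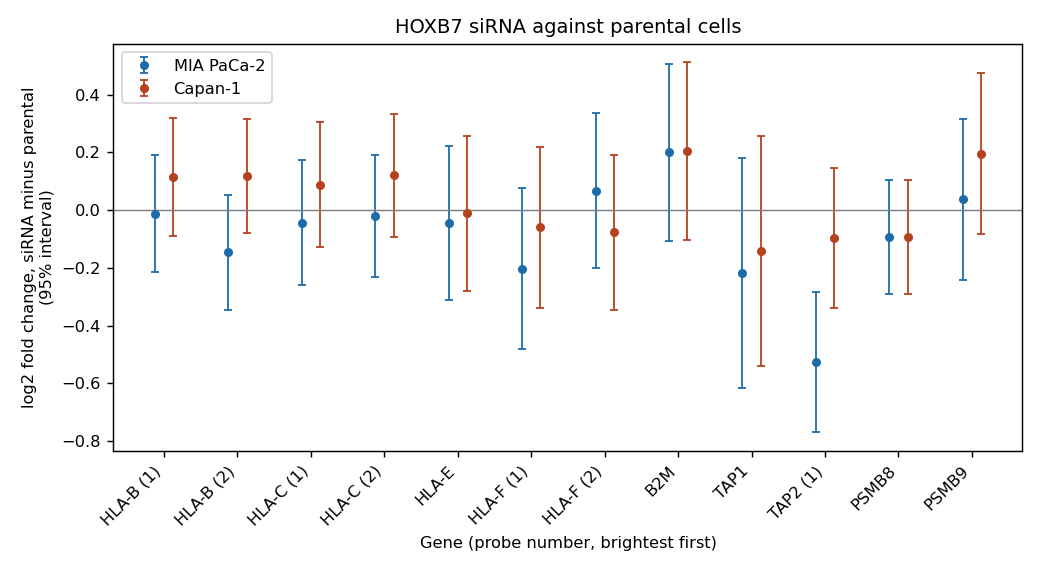
Log2 fold change of siRNA minus parental arrays for the 12 tested member probes, in MIA PaCa-2 and Capan-1, with 95% intervals from limma (2 arrays per group). All intervals include 0 but that of TAP2 in MIA PaCa-2, at -0.53, and none passed the adjusted threshold.

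TAP2, the transporter subunit, gave the largest value. Its levels in MIA PaCa-2 were -0.77 and -0.98 in the siRNA arrays and -0.33 and -0.36 in the parental arrays, without overlap. The log2 fold change was -0.53 ± 0.099 (SE, 95% interval -0.77 to -0.28), or 1.44-fold, with an unadjusted p of 0.00183 by limma and an adjusted p of 0.0622. It passed the threshold when only probes above background on all 8 arrays were tested (adjusted p = 0.0339) and when the spread was allowed to follow intensity (0.0248), and its adjusted p ran up to 0.364 under the others. In Capan-1 TAP2 read -0.31 and -0.35 against -0.19 and -0.27 (-0.10, 95% interval -0.34 to 0.15). The difference between the responses was -0.43 ± 0.14, with an unadjusted p of 0.0222 by limma and an adjusted p of 0.361.

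The other transporter subunit, TAP1, read 2.73 and 2.65 in the MIA PaCa-2 siRNA arrays and 2.93 and 2.88 in the parental arrays (-0.22, 95% interval -0.62 to 0.18). In Capan-1 its siRNA replicates were wide apart, at 3.06 and 3.55, and lay around the parental values of 3.42 and 3.47 (-0.14, 95% interval -0.54 to 0.26). Without Capan-1 siRNA replicate 1 this value was 0.10.

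B2M read 5.231 and 5.103 in the MIA PaCa-2 siRNA arrays, above the parental 4.835 and 5.100 by a narrow margin (0.20, 95% interval -0.11 to 0.51). In Capan-1 it read 6.76 and 6.92 against 6.69 and 6.58 (0.20, 95% interval -0.10 to 0.51). Neither passed the threshold, and the sign turned without scaling in MIA PaCa-2 (-0.02) and, scaled on spike-in probes, in Capan-1 (-0.19).

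The heavy chain probes in MIA PaCa-2 had fold changes between -0.20 (brighter HLA-F probe, 95% interval -0.48 to 0.08) and 0.07 (dimmer HLA-F probe). In Capan-1 they lay between -0.08 (dimmer HLA-F probe) and 0.12 (HLA-C probe at a place of its own, 95% interval -0.09 to 0.33). The 4 HLA-B and HLA-C probes were all at 0.09 to 0.12 in Capan-1, but turned to values of -0.07 to -0.04 without scaling and -0.31 to -0.28 when scaled on spike-in probes. HLA-E was at -0.05 in MIA PaCa-2 (95% interval -0.31 to 0.22) and at -0.01 in Capan-1 (-0.28 to 0.255).

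PSMB8 was at -0.09 in both lines, with 95% intervals from -0.29 to 0.10 in each. PSMB9 was at 0.04 in MIA PaCa-2 (95% interval -0.24 to 0.32) and at 0.19 in Capan-1 (-0.08 to 0.47). Its Capan-1 siRNA arrays, at 3.30 and 3.54, both lay above the parental 3.29 and 3.16, narrowly so at the nearest.

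Without a test, the siRNA arrays lay entirely below the parental arrays in MIA PaCa-2 for 4 member probes (HLA-B, TAP1, TAP2, PSMB8), against 23.3% of all probes, and entirely above for 1 (B2M), against 28%. In Capan-1 they lay below for 4 probes (both HLA-F probes, TAP2, PSMB8) and above for 5 (both HLA-B probes, 1 HLA-C probe, B2M, PSMB9), against 27.1% of all probes each way. A rule close to that of the study's methods, which calls a probe changed when it leaves an interval holding 99% of the log2 ratios between parental arrays, called 0 member probes in either line. It called 0.25% lower and 0.292% higher of all probes in MIA PaCa-2, and 0.741% and 1.12% in Capan-1.

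The difference between the responses of the lines was tested directly. No member probe passed the adjusted threshold by limma (0 of 12 either way, against 0.00391% of all 25549 probes lower and 0.00391% higher), and at an unadjusted p under 0.05 only TAP2 was lower, against 4.88% of all probes lower and 6.19% higher. Both siRNA comparisons use parental cells of their own line and share no array. The median difference of the member probes was -0.13, and that of all probes 0.02.

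The pathway has further genes, of which 26 on the array were examined: other class I genes and relatives, proteasome partners and constitutive catalytic subunits, loading and trimming factors, and regulators. In MIA PaCa-2 siRNA cells 1 gene, on 1 of 35 probes, was higher and 0 were lower, against 0.983% and 0.936% of all probes. It was MICB, a stress-induced ligand of the NKG2D receptor, whose brighter probe read 0.86 and 0.73 against 0.07 and 0.04 in the parental arrays (0.74 ± 0.096 SE, adjusted p = 0.0315). Its dimmer probe gave 0.22 (adjusted p = 0.222). The MICB call was lost when any 1 of the 8 arrays was left out, with adjusted p-values from 0.0676 to 0.134. In Capan-1 0 of the 26 genes passed by limma, where the unadjusted p was under 0.05 for 2 of 36 probes on the lower and 7 on the higher side, against 6.59% and 5.85% of all probes.

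The genes named in any case gave these siRNA values in MIA PaCa-2 and Capan-1. PSMB10, the remaining catalytic subunit of the immunoproteasome, was at 0.10 and 0.18. The proteasome activator subunits were at -0.03 and 0.05 (PSME1) and at -0.02 and 0.28 (PSME2, with 1 MIA PaCa-2 siRNA array left out for an outlier flag). TAPBP, the bridge between TAP and the heavy chain, gave between -0.16 and 0.08 over its probes in MIA PaCa-2 and between -0.26 and 0.24 in Capan-1. ERAP1, a peptide-trimming protease, was at -0.18 and -0.42.

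Among the regulators, IRF1, an interferon-induced transcription factor, was at -0.42 and -0.15. NLRC5, the transactivator of class I genes, was on its brighter probe at 0.26 and 0.11. On its dimmer probe it was at -0.21 in MIA PaCa-2. In Capan-1 siRNA cells it was at least 1.91-fold lower there, with a limma log2 difference of -0.95 (adjusted p = 0.138). None of these passed the adjusted threshold.

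The interferon-stimulated genes are given beside the members, and their part was not tested. In MIA PaCa-2 siRNA cells 2 of 10 tested probes were higher and 0 lower, against 0.983% and 0.936% of all probes. They were IFI27 (2.09, adjusted p = 0.00563) and IFI6 (0.82, adjusted p = 0.0396), calls that were not run under the alternatives, and the median over the list was -0.05. In Capan-1 siRNA cells 0 of 12 probes passed by limma. At an unadjusted p under 0.05, 10 were higher and 0 lower, against 5.85% and 6.59% of all probes, and the median was 0.84. The summed level of this list was 53.0 to 57.8 in Capan-1 siRNA arrays and 33.6 to 34.4 in its parental arrays, and 62.2 to 64.9 against 72.0 to 73.6 in MIA PaCa-2. Such a sum is weighted toward the brightest probes. In MIA PaCa-2 these were ISG15 (-0.32) and IFIT1 (-0.15), and neither passed.

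Between the parental lines the further pathway genes did not all follow the members: 10 were lower in MIA PaCa-2 and 9 higher on at least 1 probe, with 1 (CANX, a chaperone) counted both ways. By probes, 12 of 36 were lower and 10 higher, against 31.0% and 39.2% of all probes, and the median was -0.11. Among other class I genes, HLA-G, a nonclassical heavy chain, was 2.75-fold lower, the pseudogene HLA-J 3.43-fold lower and MICB 2.36-fold lower on its brighter probe, while MR1, which presents vitamin metabolites, was 2.04-fold and 2.51-fold higher on its probes, where the latter log2 difference, 1.33, was 0.69 after normexp. HLA-G and HLA-J resemble the classical heavy chains, and their signal is uncertain as to gene.

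Of the proteasome partners, PSME3 was 2.69-fold lower and PSME2 1.39-fold lower (adjusted p = 0.00422), and PSME1 was 1.16-fold higher with an adjusted p of 0.0499, a call lost under 15 of 18 alternatives, among them each of the 8 arrays left out (adjusted p = 0.0556 to 0.175). The PSME2 call was lost without scaling (limma adjusted p = 0.084). PSMB10 did not pass (-0.30, 95% interval -0.70 to 0.10). The constitutive catalytic subunits, which PSMB8, PSMB9 and PSMB10 replace in the immunoproteasome, ran the other way or did not pass: PSMB7 was 1.73-fold higher (0.79), PSMB6 1.67-fold higher (0.74) and PSMB5 was at 0.02 and did not pass. The PSMB6 call was lost with spike-in scaling (limma adjusted p = 0.0517).

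Of the loading and trimming factors, PDIA3, a disulfide isomerase of the loading complex, was 1.83-fold and 2.91-fold lower on its probes and ERAP1 was 1.95-fold lower (adjusted p = 0.0101, and 0.0508 without Capan-1 parental replicate 1). ERAP2, the partner protease, was 17.6-fold higher in parental MIA PaCa-2 (4.14 ± 0.18 SE, adjusted p = 6.75e-06), a log2 difference that shrank to 2.25 after normexp background correction. TAPBP was higher on 1 of 4 probes (0.48), a call lost without scaling (adjusted p = 0.058) and with spike-in scaling (0.366), and did not pass on the others, at -0.67 to 0.08. CANX gave 0.32 and -0.54 on its 2 probes, and both calls were lost without scaling (adjusted p = 0.136 and 0.102) and when single arrays were left out (adjusted p = 0.0595 and 0.144 without MIA PaCa-2 parental replicate 2, 0.0756 and 0.115 without Capan-1 parental replicate 1, and 0.0652 and 0.0892 without replicate 2).

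Of the regulators, NLRC5 was 1.97-fold lower on its brighter probe (-0.98 ± 0.14 SE, adjusted p = 0.00106) and gave -0.20 on the dimmer one. IRF1 was 1.36-fold lower (adjusted p = 0.0284), and its call was lost without MIA PaCa-2 parental replicate 2 (0.116), Capan-1 parental replicate 1 (0.061) or replicate 2 (0.127), and without scaling (0.178) or with spike-in scaling (0.0622). RFXAP and RFXANK, subunits of a factor that binds MHC promoters, were 3.15-fold and 1.33-fold higher. The log2 difference of RFXAP, 1.66, was 0.88 after normexp, and the RFXANK call was lost without Capan-1 parental replicate 1 (adjusted p = 0.0603), without scaling (0.0963) and with spike-in scaling (0.471).

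**Figure D4:**
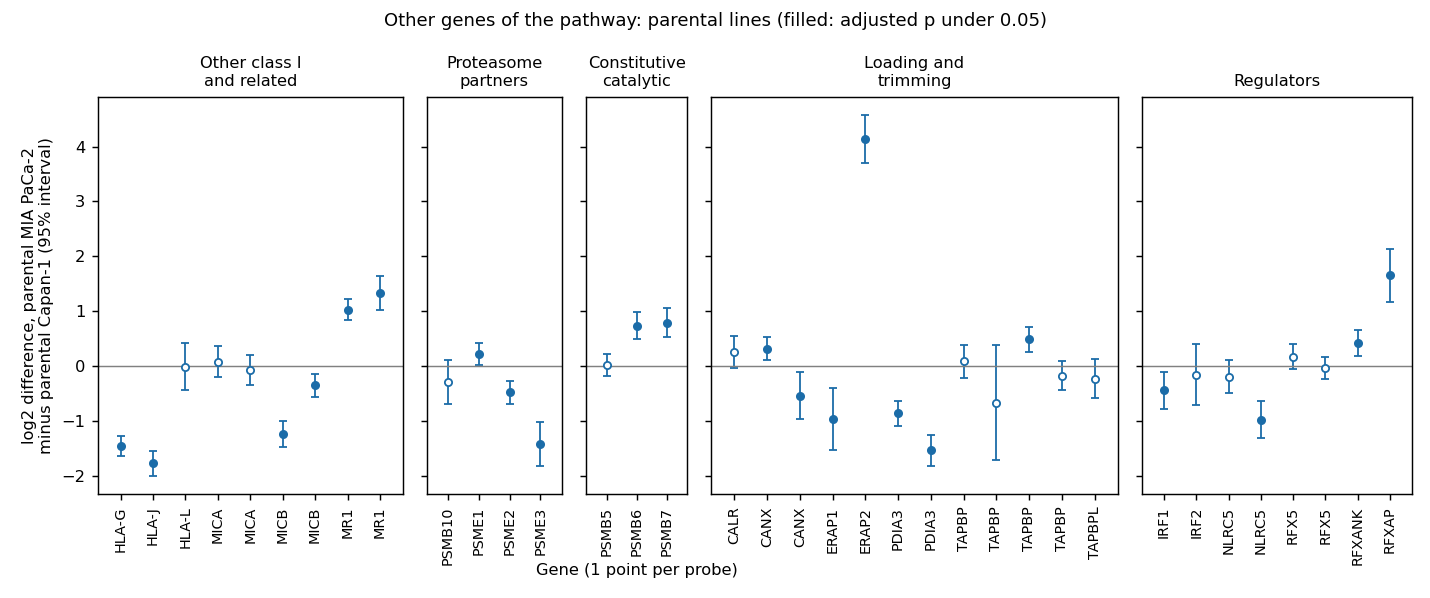
Log2 difference of parental MIA PaCa-2 minus parental Capan-1 for the further genes of the pathway, 1 point per probe, with 95% intervals from limma (2 arrays per group), in panels by role. Filled points passed an adjusted p of 0.05. Points lie on both sides of 0, from -1.78 for HLA-J to 4.14 for ERAP2.

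The genes most like the members were found by the correlation of their brightest probe with the mean of the brightest member probes, among 16517 genes above background on all 8 arrays. Over the 8 arrays these were PLAAT3, IGFBP2, S100P, FOXA1 and POLM, with r from 0.9992 to 0.9998. The arrays fall into both lines, and 3688 genes had r over 0.9, so the value describes the line difference that all of them share. After the mean of each line was taken off, NT5C, SIVA1, TUSC2, SPATS2 and CABLES1 were nearest, with r from 0.9625 to 0.9932, and 80 genes had r over 0.9. These genes were picked as the highest of 16517 over 8 arrays, which by itself favors high r, and no test was made. The member mean itself then moved little, between -0.08 and 0.06 on the log2 scale.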

How the data were processed

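The authors labeled RNA with Cy3 (Agilent's Low Input Quick Amp kit), hybridized 1-color Agilent arrays and extracted spots with Agilent Feature Extraction 9.5.3, which subtracted background. They deposited the processed intensity of each spot, and the log2 values that the authors deposited beside them equal the log2 of these intensities within 3.5e-08, with no scaling between arrays. They called genes with an intensity-dependent 99% interval of the parental arrays and criteria on the share and agreement of a gene's probes.

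Here, the spots of a probe that carried no outlier flag were averaged on the log2 scale (1 member spot was flagged, a B2M spot of Capan-1 siRNA replicate 1), and the 75th percentile of each array was subtracted. A probe entered a comparison if 1 of its groups had it well above background in both arrays. The 4 group means of the 8 arrays were fitted together with limma 3.58.1 in R 4.3.3 (lmFit, eBayes, two-sided, Benjamini-Hochberg over all tested probes, threshold 0.05), with version 1.17.8 of data.table. The residual SD had a median of 0.14. "At least" marks a fold against the lowest signal above background. Sequences and figures were made in Python 3.11.15 with pandas 2.3.3 and matplotlib 3.10.9. The number of arrays limits the precision. The fit was tested on simulated data with 200 changed probes.

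Members were all probes with 1 of the 9 gene names, and 0 probes of another name mapped to them through RefSeq accessions, which gave symbols for 24827 probes. Named were all members with every probe, HOXB7, further pathway genes of fixed lists (those past the threshold, and 7 genes in any case), examples of the fixed marker lists, and the 5 genes most like the members in each of 2 profiles. The members and lists were chosen with earlier results of these data known. The counts leave out 3 genes of the lists, which are not reported here; other list genes without a value are in the counts. The alternatives were the background correction (normexp, offset 50), quantile, no and spike-in scaling, outlier spots kept, the deposited log2 table, both filters on dim probes, each line alone, a replicate block, an intensity trend, each array left out, and the 99% interval in windows of 1000 probes.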

Additional observations from a re-analysis of the deposited data

Results flagged for a closer look

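HLA-B stood out on its second probe because both siRNA arrays lay below the parental arrays in MIA PaCa-2 and above them in Capan-1. The log2 fold changes were -0.15 and 0.12, and their difference was -0.26 (adjusted p = 0.475 by limma), so the difference between the lines did not pass a test. The first HLA-B probe, which shares most of its bases with it, overlapped in MIA PaCa-2 (-0.01).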

How the results depend on the processing

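The call of 11 lower member probes between the parental lines ranged from 9 to 11 when single arrays were left out, and 0 member probes passed in either siRNA comparison or in the difference, in every alternative but the filter to probes above background on all 8 arrays and the intensity trend, where 1 was lower in MIA PaCa-2 (TAP2). HLA-E and TAP1 lost their calls between the parental lines without scaling (adjusted p = 0.247 and 0.0968), HLA-E also when scaled on spike-in probes (0.0676) and without a filter on dim probes (0.051), and TAP1 after normexp (0.137). The replicate numbers did not pair the arrays (the deviations of arrays with 1 number correlated at 0.0249 for MIA PaCa-2 and at 0.031 for Capan-1), and with the replicate number as a block 0 of all probes passed in either siRNA comparison, while 29.8% and 37.3% passed between the parental lines and HLA-E lost its call (0.0521). With 1 line fitted alone 0 of all probes passed in either line.

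Scaling moved the median of all probes to -0.19 in MIA PaCa-2, -0.16 in Capan-1 and 0.14 between the lines without scaling, and to -0.11, -0.40 and -0.10 with spike-in probes. The member medians were then -0.26, -0.12 and -1.34, and -0.18, -0.36 and -1.59. Calls over all probes for Capan-1 siRNA were 5 lower and 3 higher with spike-in probes, 1 and 3 without scaling and 1 and 12 with quantile scaling. For the difference between the responses they were 0 and 6, 1 and 3, and 5 and 3. With normexp, whose offset by itself shrinks differences of dim probes, HOXB7 in MIA PaCa-2 was at -0.10 (adjusted p = 0.599). MICB lost its call in MIA PaCa-2 without scaling, with spike-in probes, with no filter, with the block and with the line alone (0.0768 to 0.454).

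Signs turned only for values that had not passed. In MIA PaCa-2 these were HLA-B (0.0333 without siRNA replicate 2, 0.0302 without parental replicate 2, and down to -0.0581 over the arrays left out), HLA-C (0.00112 without siRNA replicate 2, down to -0.0884, and on the second probe 0.0196 without siRNA replicate 1, down to -0.0611), HLA-E (0.0661 without parental replicate 1, down to -0.157), the dimmer HLA-F probe (-0.084 with quantile scaling, -0.149 without scaling, -0.0647 with spike-in probes, -0.0629 without parental replicate 1, up to 0.197), B2M (-0.0164 without scaling) and PSMB9 (-0.0831 with normexp, -0.179 without scaling, -0.0947 with spike-in probes, -0.0243 without parental replicate 1, up to 0.0989). In Capan-1 they were HLA-B (-0.0438 and -0.0398 on its probes without scaling, -0.283 and -0.279 with spike-in probes), HLA-C (-0.0701 and -0.0376, -0.31 and -0.277), HLA-E (0.0439 without siRNA replicate 2, 0.0415 without parental replicate 2, down to -0.0677), B2M (-0.193) and PSMB9 (-0.203) with spike-in probes, and TAP1 (0.104 without siRNA replicate 1, down to -0.388). Between the parental lines TAP2 turned to 0.00954 with normexp, and the difference between responses of the second HLA-B probe to 0.000701 with spike-in probes. The cause was not tested.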
